A study of Mus musculus with 4 samples.

Results

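The Sp100 and Sp110 nuclear body gene cluster is a run of 7 protein-coding genes on mouse chromosome 1, and 64 of the 48681 listed peaks of the testis linker histone H1t overlapped a gene body of the cluster. The 7 genes are C130026I21Rik, A530032D15Rik, G530012D18Rik, Sp110, Sp140, Sp100 and A630001G21Rik, in order of position, and they span bases 84992690 to 85778643 of chromosome 1 in GRCm38. A peak was counted for a gene when at least 1 bp of it lay inside the gene body of the GENCODE annotation. The cluster was selected on the same peak list that is described here, because its gene bodies hold many peaks, so the number and density of its peaks are a description and carry no test. Each member was compared with the other members and with 5 Mb on either side of the cluster.

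The chromatin came from testicular cells of C57BL6 mice at postnatal day 20, labelled as pachytene cells, and H1t was located in it by chromatin immunoprecipitation and sequencing (ChIP-seq). All 4 libraries came from such cells, 2 precipitated with an anti-H1t antibody and 2 of input chromatin with no antibody. The methods describe whole testes and no sorting step, and sequenced chromatin gives no marker expression against which the label could be checked. The deposited list was called once, on both ChIP libraries together against both inputs, so a peak has 1 value, no spread between libraries can be given, and every difference below is a difference within 1 pooled list.

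H1t is the testis-specific linker histone of spermatocytes and binds the DNA that enters and leaves the nucleosome. SP100 is a constitutive component of PML nuclear bodies, the spherical assemblies in the nucleus that take part in antiviral defence and in the handling of chromatin proteins. SP110 and SP140 are its relatives in the speckled protein family, interferon-inducible proteins that carry a SAND domain. SP140, a reader of chromatin, also has a PHD finger and a bromodomain. In the mouse the chromosomal stretch that holds Sp110 is known as a locus of susceptibility to tuberculosis. This stretch is also known for its repeated, Sp100-related gene copies, which are greatly amplified in some wild house mice.

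Most of the cluster, from its first member into Sp100, was made up largely of near-identical copies of the same sequence. The sequences shown here make this visible before the peak values. The promoters (250 bases before to 50 after the annotated start) come from RefSeq on GRCm38.p6. They were found for 5 of the 7 members, while G530012D18Rik and A630001G21Rik were not matched. The first set holds the promoters of 3 members that are near-identical to one another, each written 5′ to 3′ on the gene's own strand. The 146-base run that all 3 share without a difference is in capitals. The RefSeq bodies of C130026I21Rik and Sp140 reach further upstream of these promoters, to 85282883 and 85587491.
C130026I21Rik (chr1:85270517-85270816, minus strand): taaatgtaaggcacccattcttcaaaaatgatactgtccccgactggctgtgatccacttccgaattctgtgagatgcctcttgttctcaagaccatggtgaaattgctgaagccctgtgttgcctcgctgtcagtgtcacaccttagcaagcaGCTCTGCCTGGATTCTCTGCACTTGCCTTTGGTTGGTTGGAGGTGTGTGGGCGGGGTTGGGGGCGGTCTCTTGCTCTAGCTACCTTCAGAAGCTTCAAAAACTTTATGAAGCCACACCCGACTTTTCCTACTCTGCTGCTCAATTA
A530032D15Rik (chr1:85109804-85110103, minus strand): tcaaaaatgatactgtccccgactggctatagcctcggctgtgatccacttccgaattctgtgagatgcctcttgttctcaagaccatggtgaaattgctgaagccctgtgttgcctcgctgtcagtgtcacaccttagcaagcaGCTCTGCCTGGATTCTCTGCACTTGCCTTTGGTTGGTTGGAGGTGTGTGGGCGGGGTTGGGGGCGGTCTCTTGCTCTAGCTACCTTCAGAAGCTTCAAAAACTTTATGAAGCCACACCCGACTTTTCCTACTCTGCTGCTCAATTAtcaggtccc
Sp140 (chr1:85600453-85600752, plus strand): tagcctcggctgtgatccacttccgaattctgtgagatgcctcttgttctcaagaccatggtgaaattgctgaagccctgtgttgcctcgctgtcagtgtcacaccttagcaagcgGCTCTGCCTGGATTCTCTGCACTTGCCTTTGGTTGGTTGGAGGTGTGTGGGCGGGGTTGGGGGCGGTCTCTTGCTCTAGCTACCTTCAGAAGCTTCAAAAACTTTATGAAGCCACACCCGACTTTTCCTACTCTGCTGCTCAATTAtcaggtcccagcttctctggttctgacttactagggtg

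Over their aligned stretches, the Sp140 promoter was identical to the A530032D15Rik promoter at 270 of 271 bases and to the C130026I21Rik promoter at 254 of 255 bases. The C130026I21Rik and A530032D15Rik promoters had no mismatch in 291 aligned positions and differed by 12 gap bases. A search of the cluster and its 5 Mb flanks found these 3 copies of the Sp140 promoter and no other of at least 150 aligned bases, at 99.3% to 100% identity. All 3 copies touched an H1t peak, and 2 of the 3 lay at least 50% under one. Peaks covered 44.8% of all duplicated bases of the block that holds these copies, described below. Nothing particular to the shared promoter is therefore read from the count. The C130026I21Rik promoter lay wholly under a peak with a fold of 1.66 over background, 274 of the 300 bases of the Sp140 promoter lay under a peak with a fold of 1.75, and 116 of the 300 bases of the A530032D15Rik promoter lay under a peak with a fold of 1.59.

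The listed promoters of Sp110 and Sp100 have other sequences. Their promoters are shown because Sp110 had a peak over its start and Sp100 had none, although both hold the same short run. The capitals mark 18 bases that differ at 1 position between the genes, a run that was picked out after the sequences had been seen. It was found on either strand in 4 of the 32851 RefSeq promoters (0.0122%). The promoters it was taken from are among the 4, and so is the second Sp100 promoter, which overlaps the first. The share is therefore no measure of how rare the run is.
Sp110, inner start (chr1:85598761-85599060, minus strand): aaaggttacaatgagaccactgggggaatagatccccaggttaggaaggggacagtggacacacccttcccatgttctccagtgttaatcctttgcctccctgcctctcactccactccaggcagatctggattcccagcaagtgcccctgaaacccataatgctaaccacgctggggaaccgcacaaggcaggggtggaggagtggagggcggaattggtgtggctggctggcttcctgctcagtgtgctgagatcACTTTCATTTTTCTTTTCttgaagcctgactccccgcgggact
Sp100, outer start (chr1:85649738-85650037, plus strand): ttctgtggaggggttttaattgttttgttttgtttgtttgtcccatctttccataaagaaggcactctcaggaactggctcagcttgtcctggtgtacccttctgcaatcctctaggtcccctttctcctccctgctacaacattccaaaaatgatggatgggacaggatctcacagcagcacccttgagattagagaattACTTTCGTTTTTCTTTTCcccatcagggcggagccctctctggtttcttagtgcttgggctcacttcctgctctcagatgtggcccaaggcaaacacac

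All 300 bases of this Sp110 promoter lay under the peak that also reaches the Sp140 start. The outer Sp110 promoter, at 85603842 to 85604141, lay wholly under the next peak, with a fold of 1.90. Inner and outer refer only to the promoters listed in RefSeq. The outermost GENCODE start of Sp110, 85598817, lies in the inner promoter, and the outer promoter lies outside the GENCODE body. Neither of the Sp100 promoters touched a peak, although all 300 bases of each were duplicated sequence. Of the 4 motifs searched on both strands, GGGCGG (a GC box, bound by SP1-type zinc finger factors) was in 6 of the 7 member promoters and in 35.7% of all 32851 promoters. These 6 are not independent sequences, since 3 are the near-identical promoters shown first and the Sp100 pair overlaps over most of its length. GAAANNGAA (from the core of the interferon-stimulated response element) was in 0 of the 7 and in 8.56% of all. TTCNNNGAA (the interferon-gamma activated sequence) was in 0 of the 7 and in 8.30% of all, and TATAAA was in 0 of the 7 and in 13.6% of all. No searched motif overlapped another in these promoters, and an absent match says only that these letters are not in the 300 bases.

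The 64 peaks of the members lay in 5 of the 7 genes, and the members differed widely from one another. C130026I21Rik held 49 peaks, Sp140 held 9, A530032D15Rik held 7, Sp110 held 6 and Sp100 held 1, whereas G530012D18Rik and A630001G21Rik held 0. Over all 21938 protein-coding genes, 35.1% held at least 1 listed peak. The counts add up to more than 64 because 8 peaks lay in 2 members at once: A530032D15Rik lies within the long GENCODE body of C130026I21Rik, which accounts for 7 of them, and 1 peak spans the starts of both Sp110 and Sp140. At least 5 peaks were found in 4 of the 7 members, against 4.63% of protein-coding genes. Since the members were chosen on this list, nothing is read from these shares.

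Gene length sets much of the count, so the density is the fairer measure. The density was 27.4 peaks per 100 kb in Sp110, 26.1 in A530032D15Rik, 20.2 in Sp140, 17.6 in C130026I21Rik and 1.67 in Sp100. Among the 1015 protein-coding genes with at least 5 peaks these were rank 5 for Sp110, rank 7 for A530032D15Rik, rank 18 for Sp140 and rank 29 for C130026I21Rik. The flanking 5 Mb on either side had 2.45 peaks per 100 kb, with 2.46 upstream and 2.44 downstream. The 4 dense members were thus all well above both flanks. Sp100 was below the flanks, but its density rests on 1 peak.

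**Figure D1:**
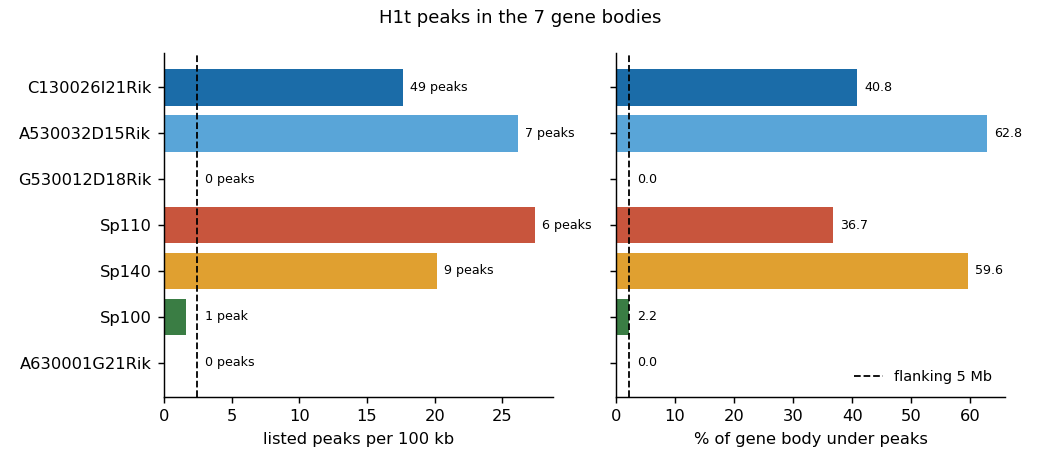
Listed H1t peaks per 100 kb of gene body (left) and percentage of the gene body under peaks (right) for the 7 members, with the number of peaks beside each bar and a dashed line at the value of the flanking 5 Mb. Sp110, A530032D15Rik, Sp140 and C130026I21Rik lie far beyond the line, Sp100 lies at or under it, and 2 members are at 0.

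The share of each gene body under a peak put the members in another order. Peaks covered 62.8% of A530032D15Rik, 59.6% of Sp140, 40.8% of C130026I21Rik, 36.7% of Sp110 and 2.19% of Sp100, against 2.25% of the flanks. Peak width also differed between them: the median peak was 3142 bp wide in Sp140 and 2335 bp in A530032D15Rik, but 1742 bp in C130026I21Rik and 854 bp in Sp110. In the flanks the median was 680 bp. Over all member bodies together, the density was 13.7 peaks per 100 kb, 5.59 times that of the flanks, and the covered share was 31.9%, 14.2 times that of the flanks.

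C130026I21Rik, a RIKEN cDNA gene whose GENCODE body begins at the shared promoter, had the largest set. Its 49 peaks ran from 262 to 9938 bp in width, and 8 of its 14 exon blocks touched one. The peak with the highest fold in any member lay in it, at 85002777 to 85005661, with a fold of 2.34 and a pileup of 18.7 fragments. The widest peak of the cluster also lay in it, from 85233385 to 85243322. Its body is 278 kb in GENCODE but 41.6 kb in RefSeq (85241286 to 85282883), and the RefSeq body held 8 peaks.

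A530032D15Rik, the second RIKEN cDNA gene with the shared promoter, held 7 peaks in 26.8 kb of entirely duplicated sequence. Its highest fold was 1.98, in a peak of 6103 bp at 85084997 to 85091099. The highest pileup of the cluster, 31.4 fragments, was also in this gene, in a peak at 85105459 to 85106204 with a fold of only 1.66. No annotated GENCODE start of the gene lay under a peak, and the next peak began 135 bp upstream of the outermost one.

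Sp110, the member named with the tuberculosis locus, had 6 peaks, and 4 of its 5 annotated starts lay under one. Their folds were low, between 1.45 and 1.75. The longer RefSeq body of Sp110, 40.1 kb from 85570735 to 85610850, held 10 peaks, with folds up to 1.92. Within the GENCODE body the highest fold, 1.75, was in the peak at 85580278 to 85583066. At the promoter-proximal end the peak at 85596432 to 85600726 also had a fold of 1.75, with a pileup of 29.7 fragments. The gene G530012D18Rik, 1.62 kb long, overlaps the far end of Sp110 and held no peak, yet the nearest peak ended 290 bp before it.

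Sp140, which encodes a reader expressed chiefly in immune cells, had 9 peaks over 44.7 kb. Its folds lay between 1.62 and 1.96, with the highest at 85629659 to 85632710, and 5 of its 6 annotated starts and 12 of its 18 exon blocks lay at least partly under a peak. One of the 9 reached only 349 bp into the gene, which is the peak shared with Sp110. That was 8.13% of the peak's length, the smallest share of a peak inside any member. The next smallest was 17.1%, or 524 bp, for the peak at the end of A530032D15Rik.

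Sp100, the nuclear body component itself, had 1 peak, at 85657252 to 85658563, 1312 bp wide, with a fold of 2.003 and a pileup of 11.45 fragments. The peak lay in an intron, and 0 of 25 exon blocks and 0 of 10 annotated starts were under a peak. A630001G21Rik, the last gene of the cluster, held none over 61.6 kb, and its nearest peak began 26.7 kb beyond it.

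The position of the single Sp100 peak coincided with a change in the sequence. When the cluster and its flanks were aligned to themselves, sequence with another copy of at least 1000 bp at 90% identity or more ran through the cluster as a block from 84954290 to 85662958, which ended inside Sp100. The first 13.0 kb of Sp100 belong to the block and hold its peak. The remaining 47.0 kb have no such copy in the cluster or its flanks and hold no peak. The last peak of the block ended 4395 bp before the block did, and the next peak on the chromosome began 147 kb further on, at 85805358. At the other end the first peak began 919 bp inside the block, and the peak before it lay 24.6 kb away. Members inside the block had 17.8 peaks per 100 kb and 41.6% of their bases covered, whereas the 109 kb of members outside it had 0 peaks. At the flank density of 2.45 peaks per 100 kb such a stretch would hold few, so no depletion is read from the 0.

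**Figure D2:**
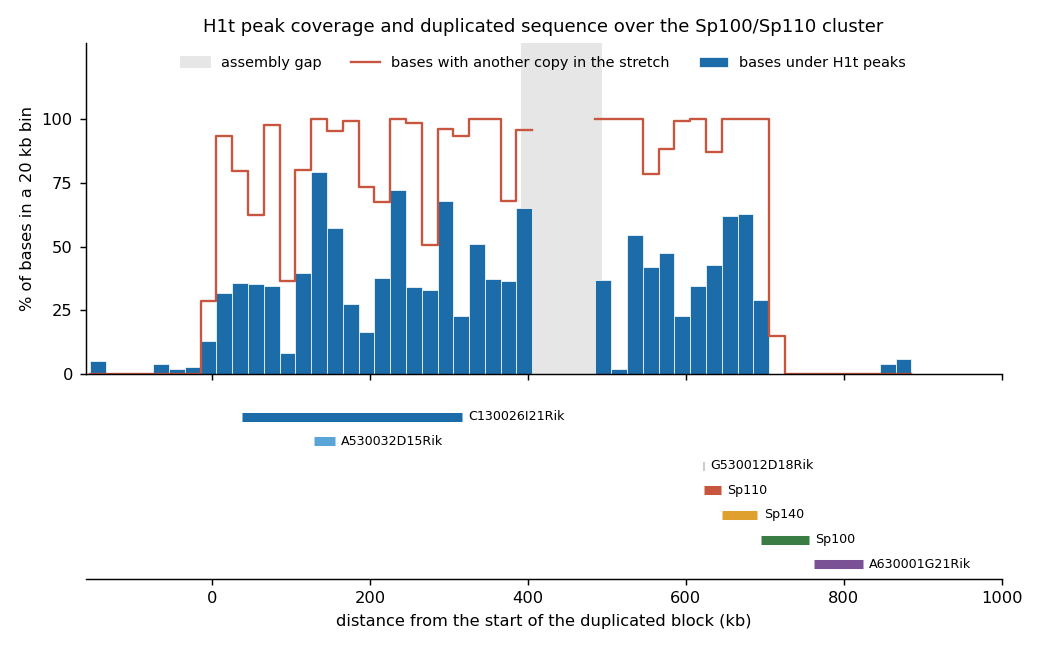
Percentage of bases under H1t peaks (bars) and percentage of bases with another copy (line) in 20 kb bins, by distance in kb from the start of the duplicated block, with the 7 gene bodies below and the assembly gap in grey. Covered bins fill the block from end to end, and the bins after it, over most of Sp100 and all of A630001G21Rik, are at 0.

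The block was 709 kb long with 1 assembly gap of 100 kb, and 88.3% of its 609 kb of assembled sequence was duplicated. The 186 pairwise alignments within it had a median identity of 97.6%, between 93.0% and 99.3%, and the longest was 15.9 kb. It held 114 peaks, the 64 of the members and 50 in no member. Of the 114, 104 lay wholly in duplicated sequence and 109 at least 90% in it. Peaks covered 44.8% of the duplicated bases of the block and 4.19% of its other bases. The median gap between neighbouring peaks was 1.79 kb in the block and 24.3 kb in the flanks.

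Cover went with the number of copies. Bases of the block with 0 other copies were covered to 4.19%, those with 1 to 28.7%, those with 2 to 35.0%, those with 3 to 50.6% and those with 6 or more to 53.1%. Bases with 4 and 5 other copies, at 48.3% and 46.8%, did not differ much from those with 3. The points are stretches of 1 block that share libraries and mapping, so no test was made.

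**Figure D3:**
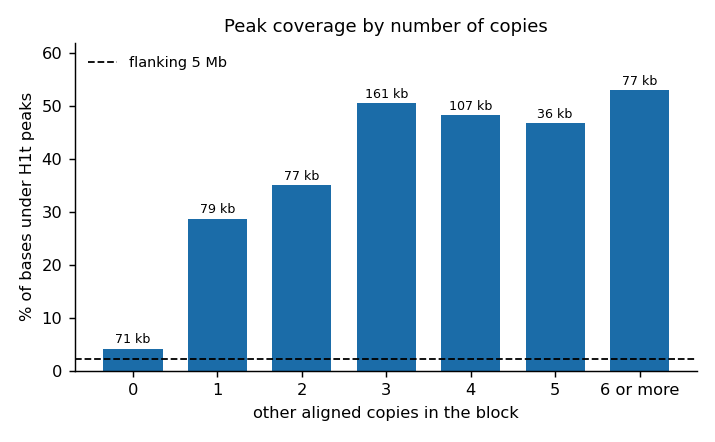
Percentage of bases under H1t peaks in the duplicated block by the number of other aligned copies of the base, with the length of such sequence above each bar and the flanking 5 Mb as a dashed line. Single-copy bases, at 4.19%, lie near the line at 2.25%, and bases with 3 or more other copies lie between 46.8% and 53.1%.

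Duplication elsewhere in the flanks did not come with the same cover. Of the 97.6 kb of duplicated sequence in the flanks, 80.1 kb lay in the Ugt1a cluster, the genes of the UDP-glucuronosyltransferases that conjugate bilirubin and drugs, where 3.57% of the duplicated bases were under peaks. Flank copies were less alike, with a median identity of 92.2%. Over all duplicated flank sequence the covered share was 3.29%, close to the 2.11% of the other flank sequence. The reverse case also occurred in the flank, in the window of 100 kb from 88200001 to 88300000. That window holds the last exons of Ugt1a and the start of Trpm8. It was covered to 42.8%, and 0% of it had another copy in the cluster or its flanks. Copies elsewhere in the genome were not searched. The 13 peaks of this window had a median fold of 1.49 and a high median background of 18.4 fragments, worked back from pileup and fold.

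Copies of the same sequence did not always share a peak. When a base under a peak was aligned to its copies, the partner base was under a peak in 52.7% of pairs, and when the base was not under a peak, in 43.7%. The pairs covered 0.890 Mb of alignment. The middle 120 bases of the Sp100 peak show this at the level of letters. They occur 4 times in the block, and the capitals mark the base that differs from the Sp100 copy, with positions counted from 1 at the 5′ end of the stretch.
Sp100 (chr1:85657848-85657967, plus strand), and without a difference Gm2619 (chr1:85319021-85319140, minus strand): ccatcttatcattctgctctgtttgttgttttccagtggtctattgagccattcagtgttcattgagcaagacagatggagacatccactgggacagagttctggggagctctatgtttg
C130026I21Rik (chr1:85043704-85043823, minus strand), G25T: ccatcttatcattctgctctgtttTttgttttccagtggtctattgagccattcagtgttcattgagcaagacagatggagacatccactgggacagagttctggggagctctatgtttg
Gm7592 (chr1:85534391-85534510, plus strand), T118A: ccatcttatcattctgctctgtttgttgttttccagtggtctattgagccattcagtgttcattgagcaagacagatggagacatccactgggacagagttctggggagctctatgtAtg

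The Sp100 copy and the identical copy in the pseudogene Gm2619 both lay wholly under peaks, with folds of 2.003 and 2.05. The copies in C130026I21Rik and in Gm7592 (a transcribed pseudogene in GENCODE), each with 1 substitution, had 0 bases under a peak. Listed peaks began close beyond them, at 85044813 and at 85534610. Whether the substitutions bear on the peaks was not tested. Over these 120 bases, a read alone does not tell the first pair of copies apart.

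The enrichment itself was modest in all members. The fold over background, the ratio of the ChIP pileup to the background the caller used, had a median of 1.77 over the 64 member peaks, between 1.45 and 2.34, against 1.72 in the flanks. A fold of at least 2 was reached by 10 of the 64 (15.6%), against 3.64% of all listed peaks and 7 of 245 in the flanks. Of these 10, 9 lay in C130026I21Rik and 1 in Sp100, and none in Sp110, Sp140 or A530032D15Rik. A p under 0.01 was given to 44 of the 64 (68.8%), against 11.8% of all peaks. A q under 0.05 was given to 0 of the 64, against 0.255% of all peaks (124 of 48681), so no member peak passed the correction over the genome. The q was read from a column whose header says that it was not computed, so it is given with that reserve.

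The 1 peak of the block that did pass it lay outside the members. It was 324 bp wide, at 85555279 to 85555602 between the GENCODE bodies of Gm7592 and Sp110 and inside the longer RefSeq body of Gm7592, and it had a fold of 3.01, a pileup of 29.4 fragments and a −log10 q of 4.13. A second narrow peak just before it, at 85553295 to 85553590, had a fold of 2.46. These were the highest folds of the whole block.

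What set most member peaks apart from most flank peaks was pileup on both sides of the ratio. It was not particular to the members, since the highest background of a flank peak, 21.2 fragments, was above their highest, 19.1. The median pileup was 15.5 fragments in the members and 9.37 in the flanks. The background worked back from pileup and fold had a median of 8.39 fragments in the members, against 4.96 in the flanks and a genome-wide value of 4.95. It was raised by over 2% above that value in 63 of the 64 member peaks (98.4%), against 22.3% of all listed peaks and 24.9% of flank peaks. This background comes from the input libraries around the peak, so the input too was higher at most member peaks, up to 3.87 times the genome-wide value. Sequence outside listed peaks has no such value.

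The raised background was not even along the block but was highest in 3 humps, which the plot of the peaks one by one shows in the neighbourhood of the copies of the shared promoter. Within 10 kb of those copies, the 14 peaks had a median background of 14.2 fragments, between 9.51 and 19.1, and the other 100 block peaks had a median of 7.42, between 4.96 and 17.2. The values were alike at the 3 copies, with medians of 14.9 at A530032D15Rik, 14.1 at C130026I21Rik and 14.1 at Sp140. Of the 15 block peaks with the highest background, 10 lay within that distance. The hump in C130026I21Rik did not peak at its promoter copy: its 3 highest values, 17.2, 17.1 and 16.5 fragments, were in peaks between 85246360 and 85260092, all beyond 10 kb from the copy, where the 4 nearer peaks had 10.1 to 14.9. The humps were seen in the plotted values first and were then measured, so this is a description. Folds were lower there, with a median of 1.65 near the copies and 1.85 elsewhere in the block.

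**Figure D4:**
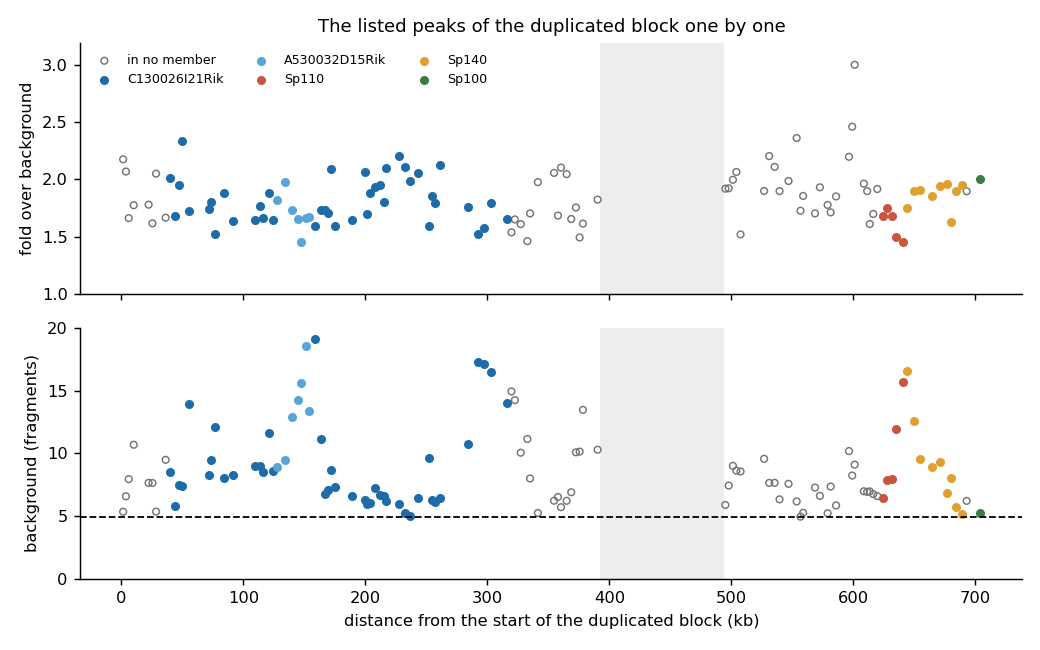
Fold over background (top) and worked-back background in fragments (bottom) of each of the 114 peaks of the duplicated block, by distance in kb from its start, coloured by member (a peak in 2 members has the colour of the second), with open circles for peaks in no member, the assembly gap in grey and the genome-wide background of 4.95 as a dashed line. Background is highest in 3 humps, at A530032D15Rik, towards the end of C130026I21Rik and at the shared start of Sp110 and Sp140, while fold stays between 1.45 and 2.46 except for 1 peak at 3.01.

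Across the 114 block peaks, which share libraries, caller and often sequence, Spearman's rho was -0.49 between background and fold, -0.29 between copies and background and 0.26 between copies and fold. These are descriptions, and fold and background are linked by the way the background was worked back. The number of copies that these mice carry was not measured here, and the part of read placement among copies in the peaks was not tested.

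The GC content and the masked share of bases differed little between member and flank peaks, but peaks made up mostly of repeats were fewer in the members. GC content was 44.3% under member peaks and 44.6% under flank peaks, repeat-masked bases made up 26.4% and 27.6%, and CpG dinucleotides numbered 0.739 and 0.870 per 100 bp. At least 50% of a peak was masked repeat in 5 of the 64 member peaks (7.81%) and 41 of the 245 flank peaks (16.7%). Over all listed peaks, 24.3% of peaks were masked to that extent, and 33.6% of bases were masked. Most centres of member peaks lay in introns. In Sp110, which has the lowest median peak width, 2 of 6 centres were exonic, and exons make up 6781 of its 21919 bp. The counts were 1 of 9 in Sp140 (exons 3328 of 44660 bp) and 1 of 49 in C130026I21Rik (3827 of 277877 bp). The counts are few and follow the exon content of each gene, so no preference is read from them. Peaks covered 72.6% of exon and 40.3% of intron bases in C130026I21Rik. The shares were 36.3% and 36.9% in Sp110, 55.7% and 59.9% in Sp140, and 52.0% and 63.5% in A530032D15Rik.

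Most other genes between the first and the last member held a peak too. A peak overlapped 19 of these 27 genes, among them 12 of 14 pseudogenes, beside 63 of 242 genes of all types in the flanks (26.0%). The transcribed pseudogene Gm2619 had the most, 30 over 170 kb, followed by Gm6264 with 7 and Gm7592 with 5. All 4 genes of the interval beyond the block, the small RNA genes n-R5s215, Mir8096 and Gm25472 and the lincRNA 9930111H07Rik, had 0. They are short, the longest being 9930111H07Rik with 9.42 kb, so little can be read from this. Short genes inside the block also had 0, among them the wholly duplicated Gm2389 (1.49 kb) and Gm10553 (0.372 kb). In the flanks, 48 of 96 protein-coding genes held a peak, and the gene with the most was Dner, which encodes a Notch ligand of neurons, with 13 over 326 kb or 3.98 per 100 kb. Pid1, Agap1, Trpm8 and the lincRNA 4933436I20Rik had 8 each, 5 of the overlapping Ugt1a transcription units had 8 and Ugt1a6a 6, their antisense partner Gm20528 had 7, and Dis3l2, Dock10 and Nyap2 had 5. The densest of them, Trpm8, at 7.17 per 100 kb, was below each of the 4 dense members.

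Genes that work with the members elsewhere in the genome did not have such runs. Of 28 nuclear body partners, 12 (42.9%) held a peak and none held more than 3, with a median of 0 per 100 kb. Pml, whose product builds the bodies, had 1 with a fold of 1.75. Pias1, a ligase of the SUMO pathway, had 3, the tumour suppressor Rb1 had 3, and Hipk2, Senp1, Usp7 and Zbtb16 had 2 each. Daxx and Atrx, which together load histone H3.3, had 0. Of 11 relatives with a SAND domain, PHD finger or bromodomain, 5 (45.5%) held a peak: Baz2b had 5 over 310 kb, Trim66 had 3, and Deaf1, Trim24 and Trim33 had 1 each. Aire, which drives expression of tissue antigens in the thymus, and the testis reader Brdt had 0. Both shares stood beside the 35.1% of all protein-coding genes.

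By windows of 100 kb, the block was among the most covered stretches of the genome without being the extreme. Of 27268 windows, the 8 that overlap the block had ranks from 21 to 96. The highest share of these was 42.3%, in the window from 85100001 to 85200000. The gap lies in the windows that begin at 85300001 and 85400001, which had 19.4% and 16.1%. Window shares are of the full 100 kb with gap bases included, so the gap lowers the shares and ranks of these windows. The most covered window of the genome, on chromosome 4 from 147300001 to 147400000, reached 64.0%. The peak list as a whole covered 1.39% of assembled bases, and the block was covered 26.3 times as densely as the autosomes.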

How the data were processed

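H1t ChIP and input were sequenced in 2 libraries each. The authors used FastQC 0.11.5 for read quality, Bowtie2 in local mode for alignment to GRCm38.p5, and MACS2 2.1.2 in broad mode for peaks (p cutoff 0.05, effective genome size 1.87e+09) on pooled libraries, keeping 39221290 of 51192421 ChIP fragments and 30377916 of 55300487 input fragments, per the file header. Bowtie2 by default reports 1 position for a read that matches several copies equally, and a filter on mapping quality is not given in the sources used here, so counts at single copies can be shared out among them. The deposited columns used were pileup (signal, in fragments), −log10 p, fold enrichment (ratio) and a score read as −log10 q, which the deposited header says was not computed.

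Background was worked back as (pileup + 1) / fold − 1, which is approximate because the caller averages over a broad peak. Gene bodies came from GENCODE vM21, and a second count used RefSeq on GRCm38.p6. Peak coordinates were used as deposited, and no peak ran past a chromosome end. Copies were found with blastn 2.17.0 (megablast, repeats masked for seeding, 90% identity, 1000 bp, e-value 1e-50). Methods were checked on simulated intervals and planted copies. Python 3.11.15 with pandas 2.3.3 was used.

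All 7 members were named, with other genes of the interval and flank genes of at least 5 peaks, up to 8 genes with a peak from each of 2 lists, and the strongest peaks, with 1 gene of the lists not reported here. The members and lists were chosen with earlier results of these data known. No test was made, since 1 pooled list gives no replicate error.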

Additional observations from a re-analysis of the deposited data

How the results depend on the processing

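Of 33 alternative values, 18 stayed within 1.5 times of a count or within the 95% counting interval of another value, and 15 moved. With only peaks of a fold of at least 2, 10 member peaks were left, the density relative to the flanks was 30.6 times, the median fold 2.09, the share with raised background 100% and the masked share 19.8%. With only peaks of p under 0.01, the density relative to the flanks was 39.2 times, the median fold 1.89 and the masked share 25.3%. With only peaks of q under 0.05, 0 member peaks were left, and the other 4 results had no value. Merging peaks closer than 3 kb gave 18 merged regions in the members and a density of 1.73 times the flanks, since close peaks then count once. Density as covered bases was 14.2 times the flanks. RefSeq bodies of 6 members, most of all the shorter C130026I21Rik, gave 32 peaks. Leaving out C130026I21Rik, an alternative chosen after seeing the data, gave 22 peaks and 4.15 times. The member density was above the flanks in all 12 density alternatives that gave a value, from 1.73 to 39.2 times. Also chosen after seeing the data, a flank without the duplicated block gave 5.76 times and the gene bodies inside the block 7.28 times. The pooled list has no replicate values, so the intervals cover counting error only. They treat neighbouring peaks, and for the masked share single bases, as independent. They can therefore be too narrow, and small shifts can count as moved. No paired analysis was possible because the peak list pools the replicates and no result comes from a test.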
